A study of Mus musculus with 12 samples.

Results

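Arginine metabolism, represented by 10 genes, was followed by RNA sequencing in cultured mouse macrophages under low oxygen and lactate. The genes were taken by name: the arginases Arg1 and Arg2, the inducible nitric oxide synthase Nos2, the arginine importer Slc7a2, the recycling enzymes Ass1 and Asl, and Odc1, Srm, Sms and Sat1 of polyamine metabolism. Each matched 1 of the 37620 gene identifiers in the count table, so 10 of 10 genes were found. Of these, 9 had enough reads to enter a test of 14616 genes, and Arg1 did not.

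The cells were bone marrow-derived macrophages of C57BL/6 mice, a primary culture sampled on day 7. The 12 libraries form 4 groups of 3. Hypoxia-lactate cells had 1% oxygen and 25 mM sodium lactate, hypoxia-NaCl cells 1% oxygen and 25 mM NaCl, normoxia-lactate cells ordinary oxygen and 25 mM sodium lactate, and normoxia-NaCl cells ordinary oxygen and 25 mM NaCl as the salt control. The design asks how these 2 conditions of poorly perfused tumour tissue act on macrophages, singly and jointly. Whether same-group libraries came from separate mice or cultures is not stated, so p-values measure only how these samples vary, and that variation may be technical.

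Arginine is a branch point in macrophages. Nitric oxide synthase turns it into nitric oxide and citrulline, and Ass1 and Asl, in sequence, rebuild arginine from citrulline. Arginase instead splits it into urea and ornithine, from which Odc1 makes putrescine and the synthases Srm and Sms make spermidine and spermine. Sat1 acetylates spermidine and spermine and Smox oxidises spermine, the routes by which polyamines are broken down or exported. Mouse macrophages are classically set apart by this choice, with Nos2 induced by inflammatory stimuli and Arg1 by interleukin-4, and Arg1 has also been described as a lactate- and hypoxia-responsive gene.

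Between 22705978 and 49885085 reads per library fell in genes. Library hypoxia-lactate 3 stood apart: it held 11437 genes with at least 10 reads against 13198 to 14767 in the others, and 0.486% of its reads were mitochondrially encoded against 2.04% to 4.75%. Rank correlation with the remaining libraries had a median of 0.906 for it, against 0.966 to 0.987 for each of them. Normoxia-NaCl 1 was the next most distant, at 0.966, with the highest mitochondrial share. Hypoxia-lactate 3 had 2 of the 10 genes above all other libraries (Sms, and Sat1 on the TMM-scaled level only) and 4 below them (Arg2, Asl, Odc1 and Srm), so results that rest on it are given with and without it. The summed level of 8 macrophage markers was 39347 to 44670 CPM (read counts scaled to library size by the trimmed mean of M values, TMM) in hypoxia-lactate, 33390 to 45593 in hypoxia-NaCl, 42124 to 48424 in normoxia-lactate and 33151 to 38335 in normoxia-NaCl. Most of that sum was Lyz2, with a mean of 30941 CPM over the 12 libraries, so it says little of the other markers. In hypoxia-lactate 3, Csf1r, Itgam and Spi1 lay above all other libraries and Fcgr1 below them, and the remaining markers within their range. The hypoxia genes Egln3 and Ankrd37, taken as benchmarks, rose in hypoxia without lactate by 4.91 ± 0.25 and 4.68 ± 0.30 on the log2 scale (SE, n = 3 each), with edgeR adjusted p = 1.28e-06 and 9.97e-06.

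None of the 9 tested genes passed an adjusted p of 0.05 (edgeR quasi-likelihood test, all 12 libraries in 1 fit) in any of 6 comparisons. In simulated counts for hypoxia without lactate this fit recovered 10 of 100 genes changed 2-fold and 55 of 100 changed 4-fold. Not passing therefore does not show that a gene was unchanged. In hypoxia without lactate (cells with NaCl in hypoxia against normoxia) 0 of 9 passed, where 0.281% of all tested genes did. In hypoxia with lactate (cells with lactate in hypoxia against normoxia) 0 of 9 passed, against 0.226% of all genes. For hypoxia and lactate together (hypoxia-lactate against normoxia-NaCl) 0 of 9 passed, against 1.61%. For lactate in hypoxia, lactate in normoxia and the interaction between oxygen and lactate, 0 of 9 passed and the share of all genes was 0% each time. At an unadjusted p under 0.05, 1, 2, 4, 1, 0 and 0 of the 9 genes were found in these 6 comparisons in the order given, against 6.49%, 14.6%, 20.7%, 11.4%, 1.55% and 3.4% of all genes. DESeq2 called Nos2 in hypoxia without lactate, in hypoxia with lactate and in both together, and Sms in both together, where it called 1.05%, 2.99% and 9.92% of all genes. It called 0 of the 9 for lactate in normoxia, lactate in hypoxia and the interaction, against 0.0684%, 0.766% and 0.00684% of all genes, and limma-voom called Nos2 in both together only. Leaving out hypoxia-lactate 3 changed the calls for Nos2, as given below.

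Nos2 (ENSMUSG00000020826, chromosome 11) was low everywhere and higher in hypoxia. It had 179, 48 and 10 reads in hypoxia-lactate libraries 1 to 3 and 80, 18 and 28 in hypoxia-NaCl. Normoxia-lactate held 10, 7 and 5 reads, and normoxia-NaCl 0, 8 and 0. Every hypoxia library thus had at least 10 reads, and 1 of 6 normoxia libraries did. Pooled over 6 libraries, the level was 1.97 CPM (363 reads) in hypoxia and 0.121 CPM (30 reads) in normoxia, on plain library totals. The detection limit, taken as 3 reads, lay between 0.0601 and 0.132 CPM per library, and the 6 normoxia libraries held 0 to 10 reads. Intervals and limits of this kind cover counting error only.

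**Figure D1:**
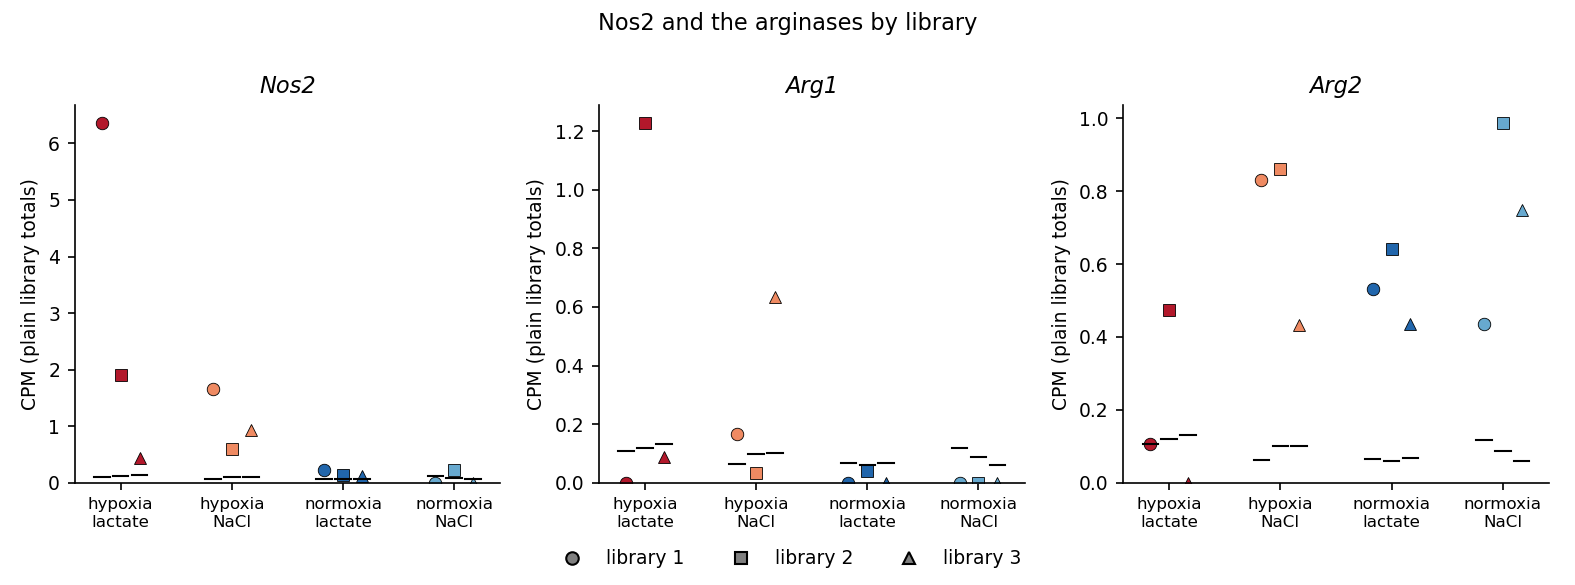
Nos2, Arg1 and Arg2 in each of the 12 libraries, in CPM of plain library totals, by group; marker shapes give the library number and short black lines the 3-read detection limit of each library. Nos2 lies above the limit in all 6 hypoxia libraries, Arg1 lies above it in 3 of them (1.23, 0.634 and 0.166 CPM), and Arg2 is lowest in hypoxia-lactate.

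The fold of Nos2 was large and imprecise. Without lactate, pooled reads gave 15.9-fold more in hypoxia-NaCl than in normoxia-NaCl (95% counting interval 7.82 to 37.6), and the fitted log2 fold change was 3.76 ± 1.18 (SE, n = 3 each; edgeR adjusted p = 0.477). With lactate the pooled ratio of hypoxia-lactate to normoxia-lactate was 19.6 (12.7 to 31.9) and the fitted change 4.20 ± 1.13 (edgeR adjusted p = 0.205). The 2 hypoxia comparisons do not share libraries, and in each the hypoxia libraries were all above the normoxia ones, as was the case for 12.8% of tested genes without lactate and 8.23% with it. For hypoxia and lactate together the change was 5.23 ± 1.23 (edgeR adjusted p = 0.0566). Without hypoxia-lactate 3 the change with lactate was 4.67 ± 0.91 (edgeR adjusted p = 0.0337) and that of both together 5.70 ± 1.01 (edgeR adjusted p = 0.00665), while 0.862% and 6.86% of all genes were called. Without lactate it was then 3.76 ± 0.96 (edgeR adjusted p = 0.0682), which missed the threshold. All 8 normoxia-NaCl reads came from library 2. Without that library the group has no Nos2 read and its fitted changes depend on the prior count, with 8.24 ± 1.76 in hypoxia without lactate (edgeR adjusted p = 0.214) and 9.71 ± 1.75 for both together (0.0411).

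As a single value, the mean log2(CPM + 0.5) of Nos2 was 0.95 in hypoxia and -0.71 in normoxia, a difference of 1.66. An exact two-sided permutation within lactate strata gave p = 0.005, the smallest that its 400 relabelings allow, and 0.03 after Benjamini-Hochberg adjustment over 6 such tests. Leaving out normoxia-lactate 1, 2 or 3 gave 1.70, 1.65 and 1.64 with an exact permutation p adjusted to 0.09 each. Leaving out both outlying libraries gave 1.97 with 0.06. Fewer relabelings exist there, and 0.06 is the lowest adjusted p that 1 of the 6 tests can reach alone. It therefore cannot be set against the 0.03 of all 12 libraries. For lactate the same value was 0.36 with lactate and -0.11 with NaCl, a difference of 0.47 (exact permutation p = 0.33, adjusted 0.495). Within hypoxia, pooled reads were 2.68-fold more in lactate than in NaCl (2.15 to 3.35), but 179 of the 237 hypoxia-lactate reads came from library 1, and the fitted change was 1.47 ± 0.99 with a 95% interval of -0.68 to 3.61. In normoxia it was 1.03 ± 1.196 (-1.56 to 3.62). The oxygen by lactate interaction of Nos2 was 0.44 ± 1.70 (-3.24 to 4.12), and -4.04 ± 2.04 (-8.57 to 0.49) without normoxia-NaCl 2. Its sign was positive in 17 and negative in 3 of the 20 settings fitted, so it is not fixed.

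Markers of other cells were compared with Nos2, since granulocytes can also express Nos2 and arginase. The 10 neutrophil markers summed to 163 to 242 CPM in hypoxia-lactate, 125 to 200 in hypoxia-NaCl, 76.6 to 163 in normoxia-lactate and 67.5 to 178 in normoxia-NaCl, most of it Mmp8, a secreted collagenase. Mmp8 had 157 to 217 CPM in hypoxia-lactate against 66.0 to 126 in normoxia-NaCl. The defining surface marker Ly6g had 5 reads in all 12 libraries together. In hypoxia-lactate 1, where Nos2 was highest, the granule genes Ngp, S100a9, Ltf and Elane had 0, 0, 1 and 0 reads. No read was found there for 6 of the 10 neutrophil markers. Of the 10 neutrophil markers, 8 were tested and 0 passed in any of the 6 comparisons. The part of Mmp8-expressing cells in the Nos2 difference was not tested. Endothelial markers summed to 155 to 296 CPM in hypoxia-lactate, 160 to 230 in hypoxia-NaCl, 143 to 194 in normoxia-lactate and 142 to 235 in normoxia-NaCl. Fibroblast markers summed to 43.2 to 97.7, 25.2 to 100, 34.8 to 78.5 and 35.5 to 95.8 CPM in the same order. The part of such cells was not tested either. Lymphocyte markers summed to at most 0.435 CPM. In such bulk samples, fewer cells of a type and less RNA per cell cannot be told apart.

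Arg1 (ENSMUSG00000019987, chromosome 10), the cytosolic arginase, was low in every group, with pooled reads under the 3-read floor only in normoxia. It had 0, 31 and 2 reads in hypoxia-lactate, 8, 1 and 19 in hypoxia-NaCl, 0, 2 and 0 in normoxia-lactate, and 0, 0 and 0 in normoxia-NaCl. Only hypoxia-lactate 2, at 1.23 CPM, and hypoxia-NaCl 3, at 0.634 CPM, had 10 reads or more. Hypoxia thus gave 61 reads in 6 libraries and normoxia 2 reads, with 5 of 6 normoxia libraries at 0. The 0 reads of normoxia-NaCl allow a pooled level of up to 0.0275 CPM (3 reads over the group). Against that floor the pooled 0.258 CPM of hypoxia-NaCl was at least 9.41-fold higher, and the 0.434 CPM of hypoxia-lactate at least 15.8-fold higher. Against the 2 reads of normoxia-lactate, hypoxia-lactate had a ratio of 30.1 with a counting interval of 7.70 to 259. Single libraries carry these folds, since 31 of the 33 hypoxia-lactate reads came from library 2 and 19 of the 28 hypoxia-NaCl reads from library 3. Without hypoxia-lactate 2, in an alternative chosen after seeing the data, 2 reads remain in that group, under the 3-read floor, and no fold can be given. Without hypoxia-NaCl 3, 9 reads remain and the level was 4.18 times the normoxia-NaCl floor, again without their counting error.

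Arg1 varied widely within hypoxia, between 0 and 31 reads. Its mean log2(CPM + 0.5) was -0.38 in hypoxia and -0.98 in normoxia, a difference of 0.60 (exact permutation p = 0.035, adjusted 0.105). Without hypoxia-lactate 1, which had no read, the difference was 0.77 with an adjusted exact permutation p of 0.015, so that 1 library decided on which side of the threshold it fell. For lactate the means were -0.64 with lactate and -0.72 with NaCl (exact permutation p = 0.8, adjusted 0.8). In hypoxia the pooled ratio of lactate to NaCl was 1.68 with an interval of 0.983 to 2.88. A lactate effect on Arg1 was thus not detectable at this depth in either oxygen level, since in normoxia both groups were below the floor of their pooled libraries.

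Genes with the pattern most like that of Arg1, by the root mean square difference of centred log2(CPM + 0.5) over 12 libraries among 9212 candidates, were Med21 (0.32), Ift74 (0.36) and Arhgap12 (0.37). The SD of Arg1 itself on that scale was 0.53. Med21 averaged 15.6 ± 6.50, 12.5 ± 2.61, 10.6 ± 1.30 and 8.60 ± 1.77 CPM (SD, n = 3) in hypoxia-lactate, hypoxia-NaCl, normoxia-lactate and normoxia-NaCl. In the same order Ift74 averaged 7.57 ± 2.94, 5.61 ± 1.72, 5.56 ± 0.371 and 5.55 ± 1.06 CPM, and Arhgap12 34.9 ± 5.65, 37.3 ± 8.24, 28.0 ± 2.70 and 24.6 ± 2.18 CPM. With reads of Arg1 in 6 of 12 libraries, these distances show little of a shared pattern.

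Arg2 (ENSMUSG00000021125, chromosome 12), the mitochondrial arginase, had more reads than Arg1 in all 6 normoxia libraries. It had 3, 12 and 0 reads in hypoxia-lactate, 40, 26 and 13 in hypoxia-NaCl, 24, 32 and 19 in normoxia-lactate and 11, 34 and 37 in normoxia-NaCl. Hypoxia-lactate was the low group, with 0.184 ± 0.236 CPM against 0.680 ± 0.227 in hypoxia-NaCl, 0.518 ± 0.106 in normoxia-lactate and 0.707 ± 0.197 in normoxia-NaCl (SD, n = 3 each). On the TMM-scaled level only, Arg2 lay below every normoxia-NaCl library in all 3 hypoxia-lactate libraries, as did 11.2% of tested genes. On plain totals these groups overlap, with hypoxia-lactate 2 at 0.475 CPM and normoxia-NaCl 1 at 0.434 CPM. The fitted change of both together was -1.86 ± 0.85 (edgeR adjusted p = 0.236), and -1.37 ± 0.69 (0.230) without hypoxia-lactate 3. Lactate in hypoxia gave -1.80 ± 0.85 (edgeR adjusted p = 0.440; 95% interval -3.63 to 0.04), and oxygen without lactate -0.06 ± 0.78 (-1.74 to 1.62). The Arg2 gene overlaps Vti1b on the opposite strand, and whether counting used the strand is not given in the sources used here. Its reads are therefore uncertain.

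Slc7a2 (ENSMUSG00000031596, chromosome 8), the cationic amino acid transporter that supplies arginine to activated macrophages, had a higher level in each hypoxia library than in its same-numbered normoxia partner. It had 93.6, 29.9 and 84.1 CPM in hypoxia-lactate libraries 1 to 3 and 78.3, 26.8 and 107 in hypoxia-NaCl. Normoxia-lactate held 31.2, 10.3 and 43.6 CPM and normoxia-NaCl 37.0, 15.2 and 35.8. Library 2 of every group was the lowest, at 0.274 to 0.417 of the mean of its 2 partners, so the groups overlap. The excess of hypoxia over the same-numbered normoxia library was 0.80 to 1.57 on the log2(CPM + 0.5) scale in 6 of 6 pairs. The fitted change without lactate was 1.27 ± 0.60 (SE, n = 3 each; edgeR adjusted p = 0.780), and with lactate 1.29 ± 0.60 (0.347).

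The library numbers paired the samples in hypoxia without lactate, where same-numbered libraries deviated together over all genes (correlations 0.149 to 0.380). In hypoxia with lactate the correlations were -0.0394 to 0.116. The lowest of these was that of the libraries numbered 3. The pairs with lactate, for Slc7a2 and for Ass1, Srm and Sat1 below, therefore missed the limit set for pairing, that every correlation be over 0.1. Libraries numbered 2 were still the lowest for Slc7a2 and Ass1 in all 4 groups. What the numbers share is not stated. Nos2 and Sms were also higher in hypoxia in 6 of 6 pairs, and the share of all genes that go 1 way in every pair was not counted. With the number as a block the Slc7a2 change in hypoxia without lactate was 1.15 ± 0.21 (edgeR adjusted p = 0.0685). With the block and without hypoxia-lactate 3, a library outside this comparison that still adds to the common spread, Slc7a2 was higher by 1.14 ± 0.17 (edgeR adjusted p = 0.00234), Nos2 higher by 3.60 ± 0.89 (0.0365) and Ass1 lower by 0.97 on the log2 scale ± 0.20 (0.0178). These are 3 of the 9 tested genes, where 5.08% of all genes were called in that fit, 2.47% higher and 2.62% lower. Lactate left Slc7a2 within its spread, at -0.03 ± 0.59 in hypoxia (95% interval -1.32 to 1.26) and -0.05 ± 0.60 in normoxia (-1.34 to 1.24). Slc7a2 overlaps a non-coding gene on the opposite strand, so part of its reads is uncertain.

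**Figure D2:**
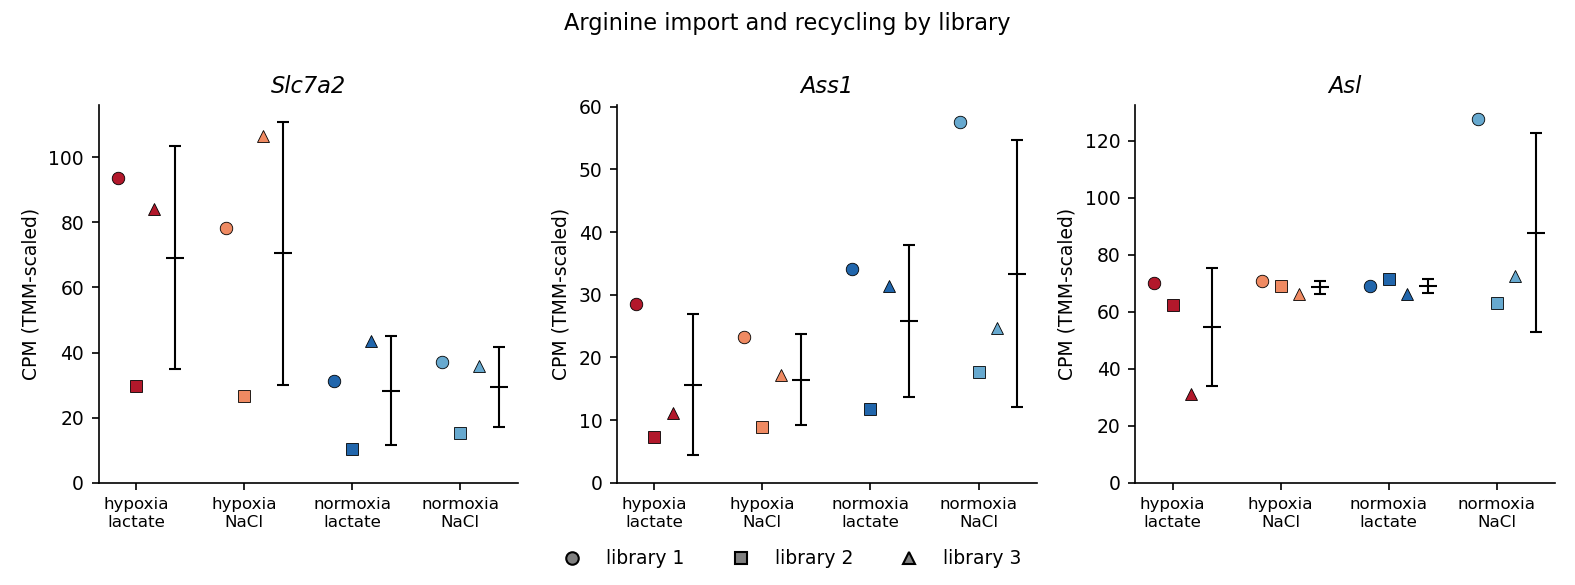
Slc7a2, Ass1 and Asl in each library in TMM-scaled CPM, by group; marker shapes give the library number, and the black bar to the right of each group is its mean with the SD over 3 libraries. Library 2 (squares) is the lowest for Slc7a2 and Ass1 in all 4 groups, and normoxia-NaCl 1 is the highest for Ass1 (57.6 CPM) and Asl (128 CPM).

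Ass1 (ENSMUSG00000076441, chromosome 2), argininosuccinate synthase, had a lower level in each hypoxia library than in its same-numbered normoxia partner. It had 28.5, 7.32 and 11.1 CPM in hypoxia-lactate, 23.3, 8.85 and 17.1 in hypoxia-NaCl, 34.1, 11.8 and 31.4 in normoxia-lactate and 57.6, 17.6 and 24.7 in normoxia-NaCl. Library 1 was the highest and library 2 the lowest in every group, and the log2(CPM + 0.5) difference of hypoxia from normoxia was -1.46 to -0.25 over the 6 pairs. The fitted change was -1.02 ± 0.59 without lactate (edgeR adjusted p = 0.882) and -0.72 ± 0.59 with it (0.585). Lactate gave -0.07 ± 0.59 in hypoxia (95% interval -1.34 to 1.21) and -0.37 ± 0.59 in normoxia (-1.64 to 0.90).

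The libraries numbered 2, in which Slc7a2 and Ass1 were lowest, also held more reads of neutrophil granule genes in every group. Ngp had 113 to 437 reads in the 4 libraries numbered 2 and 0 to 11 in the other 8, S100a9 288 to 683 against 0 to 31, and Ltf 89 to 410 against 0 to 9. Mpo and Camp overlapped between these libraries, and S100a8 was highest in hypoxia-lactate 3 (589 reads), where S100a9 had 0. The part of these cells in the low Slc7a2 and Ass1 values was not tested.

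Asl (ENSMUSG00000025533, chromosome 5), argininosuccinate lyase, lay between 62.5 and 72.5 CPM in 10 of the 12 libraries. The exceptions were hypoxia-lactate 3 at 31.1 CPM and normoxia-NaCl 1 at 128 CPM. Its change in hypoxia without lactate was -0.35 ± 0.30 (edgeR adjusted p = 0.963). That for both together was -0.68 ± 0.30 (0.222), and -0.40 ± 0.24 (0.301) without hypoxia-lactate 3.

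The promoter of Ass1 is shown because it is the arginine-recycling gene called lower with the block and without hypoxia-lactate 3. It also holds the most matches to the core hypoxia response motif in a single window among the 4 of the 10 genes with a window in the sequence table. The table (RefSeq, GRCm38.p6, from 250 bases before to 50 after the gene start) had windows for Odc1, Ass1, Sat1 and Sms. ACGTG and GCGTG were searched on both strands, and capitals mark every match, a match on the other strand reading CACGT or CACGC. The palindrome CACGTG counts as 2 overlapping matches, and the lead of Ass1 over Odc1 rests on that count. Ass1 lies on the plus strand at chr2:31470020-31470319:
Ass1: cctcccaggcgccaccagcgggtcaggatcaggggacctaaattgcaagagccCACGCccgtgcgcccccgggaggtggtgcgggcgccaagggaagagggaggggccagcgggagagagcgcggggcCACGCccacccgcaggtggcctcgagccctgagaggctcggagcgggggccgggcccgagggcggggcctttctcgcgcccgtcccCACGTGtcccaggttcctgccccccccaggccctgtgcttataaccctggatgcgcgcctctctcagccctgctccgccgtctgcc
Ass1 had 4 matches, Odc1 3, the 2 Sms windows 2 and 3, and Sat1 0. Of all 32851 windows in the table, 43.8% had at least 1, 20.6% at least 2 and 8.93% at least 3. A match is a run of letters, not a shown binding site.

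Odc1 (ENSMUSG00000011179, chromosome 12), ornithine decarboxylase and the entry into polyamine synthesis, lay between 8.36 and 13.8 CPM in 10 of the 12 libraries. It had 13.1, 12.8 and 3.56 CPM in hypoxia-lactate, 12.1, 11.1 and 8.36 in hypoxia-NaCl, 11.2, 10.6 and 12.4 in normoxia-lactate and 19.0, 13.8 and 10.4 in normoxia-NaCl. The groups overlap, and the lowest value was that of hypoxia-lactate 3. The change without lactate was -0.45 ± 0.42 (edgeR adjusted p = 0.967) and with lactate -0.21 ± 0.42 (0.836), which became 0.18 ± 0.25 (0.788) without hypoxia-lactate 3. A small nucleolar RNA gene lies within Odc1 on the same strand.

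Srm (ENSMUSG00000006442, chromosome 4), spermidine synthase, was lower in hypoxia in all 6 same-numbered pairs, without passing the test. It had 12.01, 16.9 and 1.78 CPM in hypoxia-lactate, 14.7, 16.2 and 7.78 in hypoxia-NaCl, 16.5, 19.7 and 14.5 in normoxia-lactate and 27.4, 17.8 and 14.5 in normoxia-NaCl. Library 3 was the lowest in every group. The change was -0.62 ± 0.57 without lactate (edgeR adjusted p = 0.967) and -0.72 ± 0.58 with it (0.574). The change with lactate was -0.23 ± 0.32 without hypoxia-lactate 3, whose 30 Srm reads were the fewest of any library.

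Sms (ENSMUSG00000071708, chromosome X), spermine synthase, was highest in hypoxia-lactate, mostly through 1 library. It had 22.8, 23.9 and 73.0 CPM in hypoxia-lactate, 18.0, 20.2 and 21.8 in hypoxia-NaCl, 16.8, 15.8 and 18.8 in normoxia-lactate and 16.2, 19.0 and 14.7 in normoxia-NaCl. All 3 hypoxia-lactate libraries were above every other library. Against 1 group at a time, the 3 libraries were higher for 8.23% of tested genes with normoxia-lactate, 6.69% with hypoxia-NaCl and 9.39% with normoxia-NaCl. The smaller share above every other library at once was not counted. The fitted change with lactate was 1.21 ± 0.38 (edgeR adjusted p = 0.251) and for both together 1.26 ± 0.38 (0.108). Without hypoxia-lactate 3 these were 0.44 ± 0.17 (0.280) and 0.49 ± 0.17 (0.0947). Without hypoxia-lactate 2 the change of both together was 1.53 ± 0.38 (edgeR adjusted p = 0.0454). The mouse genome also holds a processed pseudogene named Sms-ps, and reads shared with it make Sms counts uncertain.

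**Figure D3:**
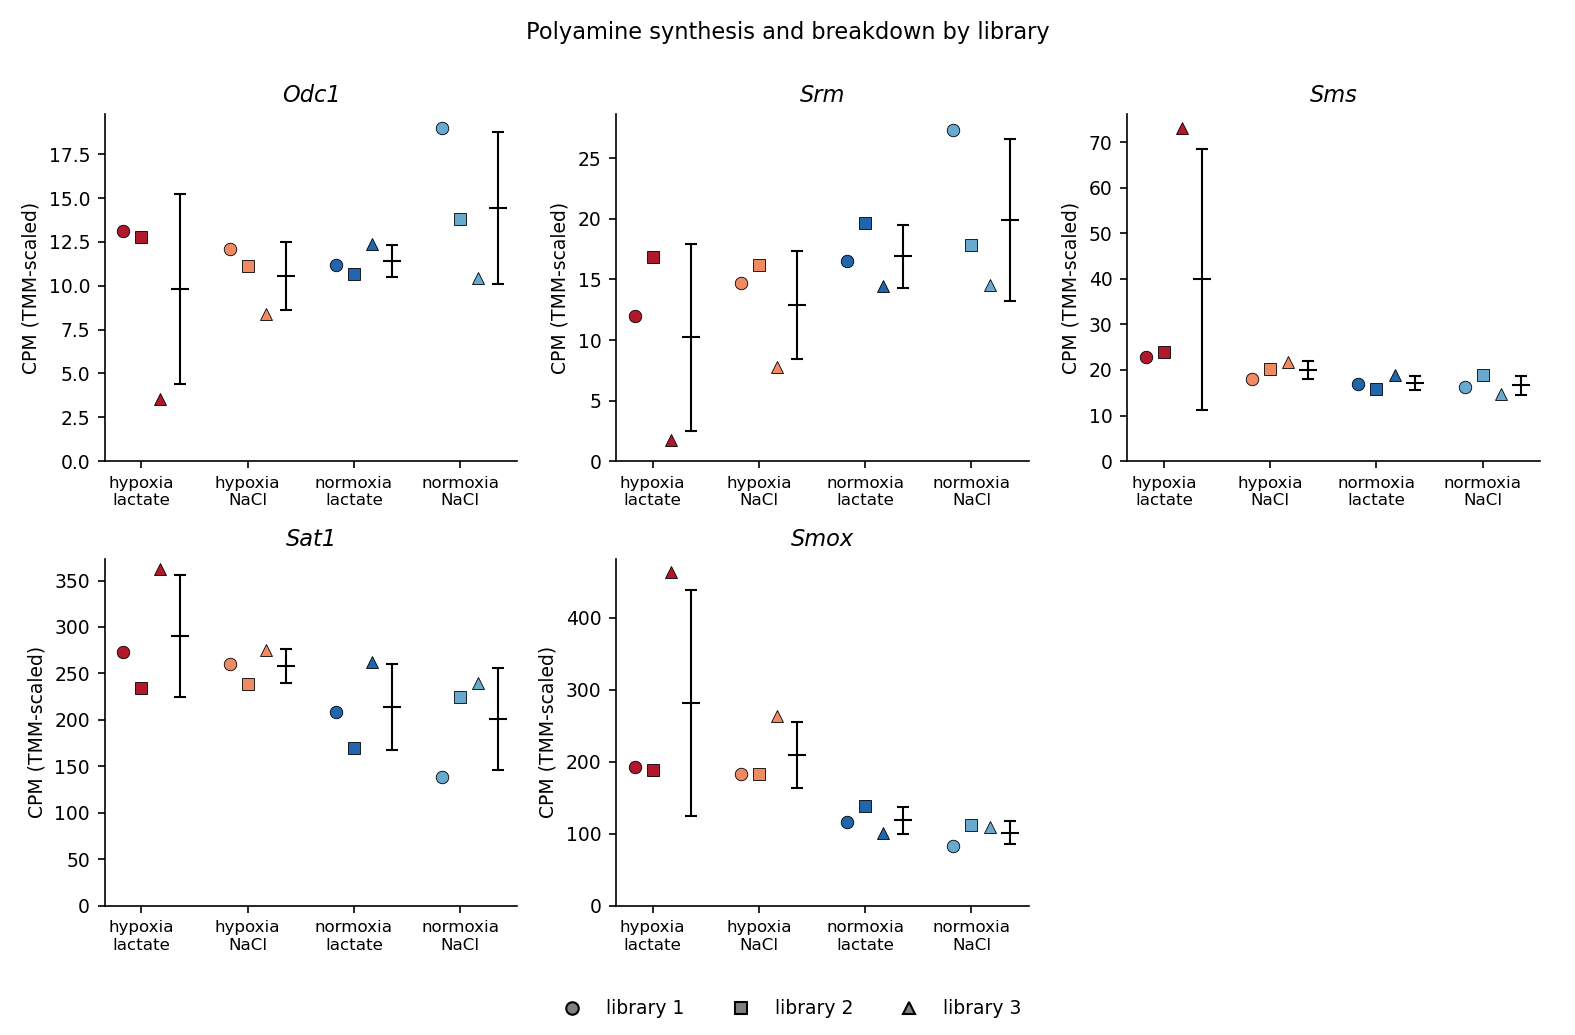
Polyamine genes in each library in TMM-scaled CPM, by group; marker shapes give the library number, and the black bar to the right of each group is its mean with the SD over 3 libraries. Hypoxia-lactate 3 (triangle, far left group) is the lowest for Odc1 (3.56) and Srm (1.78) and the highest for Sms (73.0), Sat1 (362) and Smox (463).

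Sat1 (ENSMUSG00000025283, chromosome X), the acetyltransferase that starts polyamine breakdown, was the most abundant of the 10. It had 273, 234 and 362 CPM in hypoxia-lactate, 261, 239 and 275 in hypoxia-NaCl, 209, 170 and 262 in normoxia-lactate and 139, 224 and 240 in normoxia-NaCl. Each hypoxia library was above its same-numbered normoxia partner, by 0.09 to 0.91 on the log2 scale, but the groups overlap. The change was 0.36 ± 0.24 without lactate (edgeR adjusted p = 0.932), 0.44 ± 0.24 with it (0.412) and 0.53 ± 0.25 for both together (0.243).

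As 1 gene of polyamine synthesis against 1 of breakdown, the ratio of Odc1 to Sat1 reads was taken, which does not depend on library scaling. It covers the RNA of these genes only, and neither enzyme activity nor polyamine levels can be read from it. Sat1 had 20.8, 18.4 and 102 reads per Odc1 read in hypoxia-lactate, 21.5, 21.4 and 32.9 in hypoxia-NaCl, 18.6, 16.0 and 21.1 in normoxia-lactate and 7.30, 16.2 and 23.0 in normoxia-NaCl. The extremes were again hypoxia-lactate 3 and normoxia-NaCl 1. The mean log2 ratio of Odc1 to Sat1 was -4.85 in hypoxia and -4.00 in normoxia (exact permutation p = 0.075, adjusted 0.15). That difference of -0.85 was -0.45 without hypoxia-lactate 3 (exact permutation p adjusted to 0.21) and -0.22 without both outlying libraries (0.36). It was -4.64 with lactate and -4.21 with NaCl (exact permutation p = 0.455, adjusted 0.546).

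**Figure D4:**
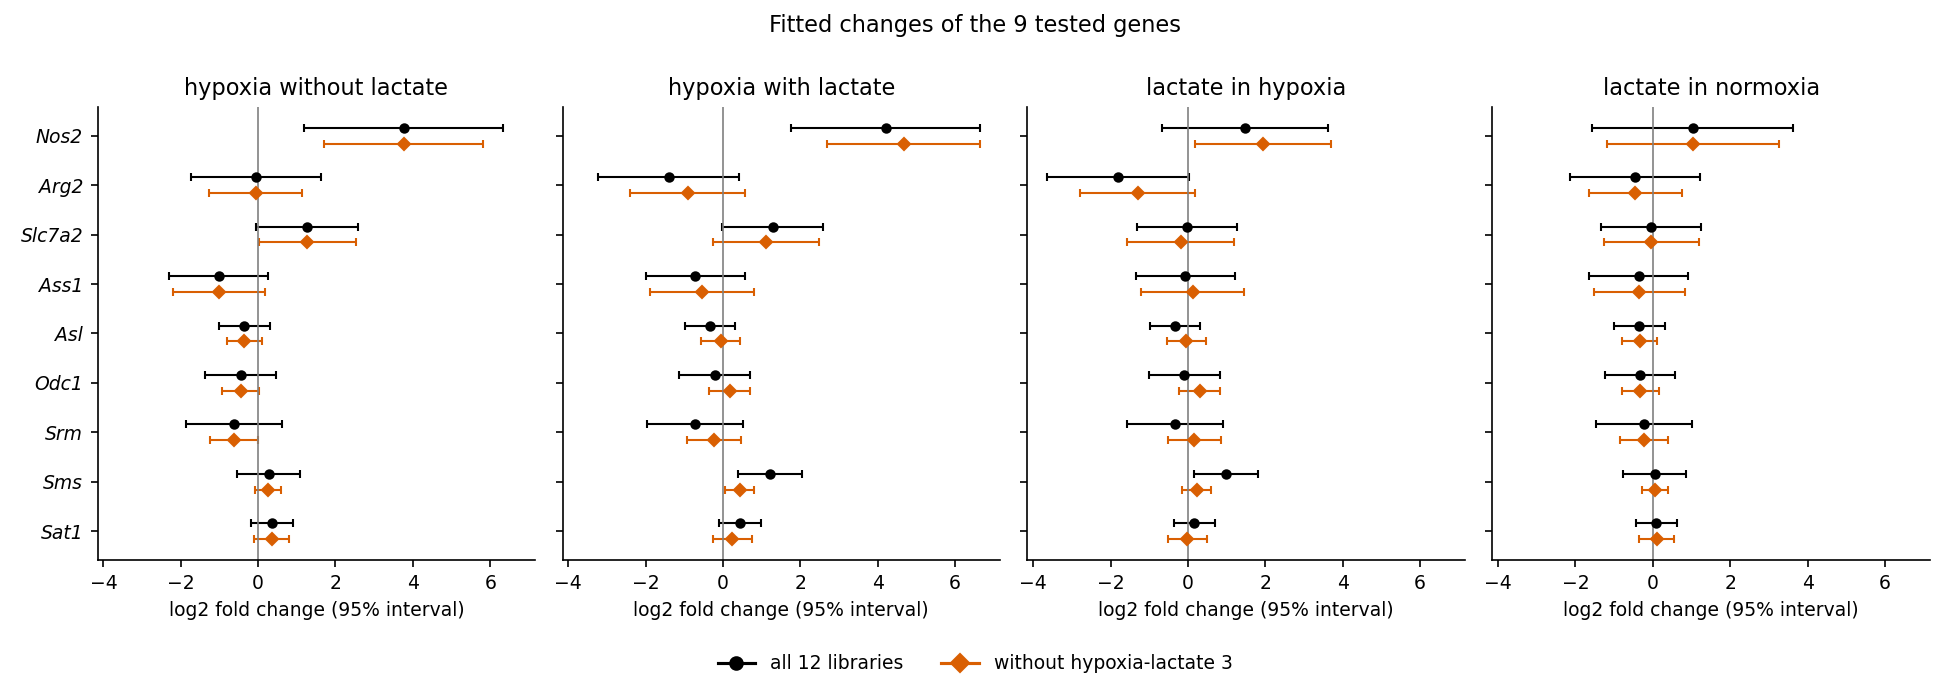
Fitted log2 fold changes of the 9 tested genes with 95% intervals in 4 comparisons, with all 12 libraries (black circles) and without hypoxia-lactate 3 (orange diamonds). Nos2 has the largest change and the widest interval in both hypoxia panels, and the Sms change with lactate is 1.21 with all libraries and 0.44 without that library.

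Levels were compared between genes per length, as RPKM (CPM per kilobase of exon, TMM-scaled, with exon lengths from GENCODE). The median over 12 libraries was 86.3 RPKM for Sat1, 14.3 for Asl, 9.67 for Srm, 8.48 for Ass1, 3.99 for Slc7a2, 3.42 for Odc1, 3.15 for Sms, 0.351 for Arg2, 0.0872 for Nos2 and 0.00697 for Arg1. Sat1 stood apart, since its lowest library (50.01) exceeded the highest of Asl (26.4). The ranges of neighbours from Asl down to Sms overlap, so their order is not fixed. Arg2 reached at most 0.627 RPKM, below the lowest library of each of the 7 genes above it, and its range overlaps that of Nos2.

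The median log2 change over the 9 tested genes was -0.06 in hypoxia without lactate, -0.21 in hypoxia with lactate, -0.24 for lactate in normoxia, -0.07 for lactate in hypoxia and -0.55 for both together, against 0.01, -0.03, 0.01, -0.03 and -0.01 over all tested genes. The interaction had a median of 0.08, against -0.04 over all genes. For lactate in normoxia 0 of 9 genes passed in the settings tried, and no 95% interval of the 9 excluded 0.

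A wider list of 56 pathway genes in 8 subgroups, 47 of them tested, held 1 that passed. Smox (ENSMUSG00000027333), spermine oxidase, had 193, 189 and 463 CPM in hypoxia-lactate, 182, 182 and 263 in hypoxia-NaCl, 116, 138 and 101 in normoxia-lactate and 83.3, 111 and 109 in normoxia-NaCl. All 6 hypoxia libraries were above all 6 normoxia libraries. Of all tested genes, 12.8% had every hypoxia library above every normoxia one without lactate, 8.23% with it, and 9.39% for both together. The share with all 6 above all 6 was not counted. Smox rose by 1.47 ± 0.33 for both together (edgeR adjusted p = 0.0441), against 1.17% of all genes called higher, and by 0.92 ± 0.20 (edgeR adjusted p = 0.0180) without hypoxia-lactate 3. In hypoxia without lactate it was 1.05 ± 0.32 (edgeR adjusted p = 0.458), and 1.04 ± 0.18 (0.0125) without that library. Smox was thus called with hypoxia-lactate 3 left out in hypoxia without lactate too, where 1.79% of all genes were. The Smox window in the promoter table, at chr2:131491612-131491911 on the plus strand of GRCm38.p6, is shown as the promoter of the pathway gene that passed. It holds 0 matches to ACGTG or GCGTG on either strand, so it has no capitals, and these letters being absent from the window says nothing of the factor:
Smox: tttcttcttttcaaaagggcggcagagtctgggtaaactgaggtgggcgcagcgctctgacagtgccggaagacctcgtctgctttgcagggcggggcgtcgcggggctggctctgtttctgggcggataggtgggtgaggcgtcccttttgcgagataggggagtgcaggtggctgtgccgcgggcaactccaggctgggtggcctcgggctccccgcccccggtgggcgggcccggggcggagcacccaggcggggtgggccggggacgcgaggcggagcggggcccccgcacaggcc

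No gene of the list other than Smox passed with all 12 libraries. Of the polyamine breakdown and transport genes, 6 of 7 were tested, and besides Smox 0 passed; Atp13a2, a lysosomal polyamine exporter, had -0.59 ± 0.27 in hypoxia without lactate (edgeR adjusted p = 0.773). Polyamine synthesis and its regulators had 0 of 7 tested past the threshold, with a median change of 0.20 in hypoxia without lactate. There Oaz1, the antizyme that directs Odc1 to degradation, had 482, 431 and 1146 CPM in hypoxia-lactate, 519, 454 and 434 in hypoxia-NaCl, 479, 762 and 453 in normoxia-lactate and 682, 594 and 486 in normoxia-NaCl. Hypoxia-lactate 3 was the highest of the 12 libraries, and the other 2 of its group lay within the range of hypoxia-NaCl or below it. Arginine transport and sensing had 0 of 8 past the threshold, with a median of -0.34, and Slc3a2, the heavy chain of several amino acid transporters, had -0.41 ± 0.23 in hypoxia without lactate and 0.33 ± 0.23 with it.

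The nitric oxide cofactor genes gave 0 of 9 past the threshold. Qdpr, which regenerates tetrahydrobiopterin, had -0.29 ± 0.23 in hypoxia without lactate. The ornithine to proline and glutamate genes gave 0 of 6, with Oat, ornithine aminotransferase, at -0.01 ± 0.27. Hypusination of eIF5A, which uses spermidine, gave 0 of 4, with Eif5a at -0.48 ± 0.25. Dhps, the deoxyhypusine synthase, had -0.99 ± 0.34 in both together (edgeR adjusted p = 0.138), and -0.64 ± 0.18 (0.0479) without hypoxia-lactate 3, which passed, as did 6.86% of all genes. Creatine synthesis gave 0 of 4 and the urea cycle with ornithine exchange 0 of 3. Cps1 and Otc, which complete the urea cycle in liver, had 0 reads in all libraries. The median change of the 47 genes was -0.23 in hypoxia without lactate, -0.22 in hypoxia with lactate, -0.10 for lactate in normoxia, -0.08 for lactate in hypoxia, -0.32 for both together and -0.04 for the interaction.

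Other activation genes give the setting. Mrc1, the mannose receptor of alternatively activated macrophages, had 3.096, 5.89 and 1.25 CPM in hypoxia-lactate against 21.8, 26.5 and 21.9 in normoxia-NaCl. It fell by 2.76 on the log2 scale for both together (± 0.46, edgeR adjusted p = 0.0120). Il1b, an inflammatory cytokine, had 5.44, 7.13 and 4.09 CPM in hypoxia-lactate against 0.823, 0.816 and 0.626 in normoxia-NaCl and rose by 2.88 ± 0.46 (edgeR adjusted p = 0.00887). They were 1 of 7 tested alternative activation genes and 1 of 6 pro-inflammatory genes, where 1.61% of all genes passed, and were named after their values were seen. Of the 7 alternative activation genes, 4 had a positive and 3 a negative change for both together, with a median of 0.17. Of the 6 pro-inflammatory genes, 5 had a positive and 1 a negative change, with a median of 0.45. Of 15 transcription factors known to act on Arg1 or Nos2, 0 passed. Among these Hif1a had 0.44 ± 0.22 for both together (edgeR adjusted p = 0.285), and 0.65 ± 0.15 (0.0252) without hypoxia-lactate 3, where 6.86% of all genes passed.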

How the data were processed

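The deposited table holds raw read counts by Ensembl gene identifier, with a column for each library, as the authors deposited it. Polyadenylated RNA was sequenced on an Ion Proton instrument, per the labels' protocols. The tools BWA and HTSeq and the build mm9 are named in the submitters' processing notes, without versions; neither the annotation release nor the strand setting is stated in the sources used here. Per library, 8.34% to 18.4% of reads were not uniquely aligned and 0.361% to 0.442% ambiguous, 13.7% to 22.0% outside genes and 2.02% to 5.48% unaligned, and these counters were kept out of library sizes. Symbols and exon lengths came from a GENCODE annotation of GRCm38, from which no coordinates were taken: 32897 of 37620 identifiers had a symbol.

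Counts were fitted with edgeR 4.0.16 in R 4.3.3 (filterByExpr, TMM, quasi-likelihood F test, 1 mean per group, 12 libraries), with Benjamini-Hochberg adjustment over 14616 genes. The SE was computed back from the fold change and its F statistic (absolute change divided by the root of F). CPM of Arg1, and pooled or permuted levels of Nos2 and Arg2, used plain totals. Counting intervals are exact Poisson or binomial at 95%. The scripts were tested on simulated counts with 100 2-fold and 100 4-fold changes set in hypoxia-NaCl. With all 12 libraries 10 and 55 of these were recovered, and 2 of 67 calls were false. Without hypoxia-lactate 3, 50 and 81 were recovered, and 5 of 136 calls were false. Alternatives were RLE factors, no filter, DESeq2 1.42.0, a minimum mean of 5 CPM, limma-voom (limma 3.58.1), the library number as a block, fewer libraries and only the groups compared. The numbers were taken to pair libraries where every correlation of deviations from group means was over 0.1: 0.149 to 0.380 in hypoxia without lactate, but a lowest value of -0.07 to 0.05 in the other comparisons.

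The genes, lists, tests and alternatives were chosen with earlier results of these data known. All 10 genes are named, as is every gene of the wider pathway list past the threshold and otherwise at most 3 per subgroup by mean CPM. For Arg1, and for any of the 10 genes past the threshold, the 3 most similar genes with at least 5 CPM are named. Genes outside that rule (Mmp8 and the granule genes, Mrc1, Il1b, Hif1a, and Dhps) were named after their values were seen.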

Additional observations from a re-analysis of the deposited data

How the results depend on the processing

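Of the 10 genes, 7 were refitted under 21 alternatives for each comparison of 2 groups and 20 for the interaction, and Nos2, Arg2 and Arg1 under fewer, since their reads did not pass every filter (Arg1 under 13). In hypoxia without lactate 0 of the 9 tested genes passed, but 1 with DESeq2 (1.05% of all genes) and 3 with the replicate block without hypoxia-lactate 3 (5.08%). In hypoxia with lactate 0 passed, but 1 with DESeq2 (2.99%), with the replicate block (0.233%) or without both outlying libraries (2.49%), and 2 with the block without hypoxia-lactate 3 (1.73%). For both together 0 passed, but 1 with no filter (1.42%), limma-voom (1.67%), the block (2.29%) or without both outlying libraries (5.98%), 2 with DESeq2 (9.92%) and 3 with the block without hypoxia-lactate 3 (14%). Leaving out each library in turn gave 0 to 1 in hypoxia with lactate (1 without hypoxia-lactate 3, against 0.862% of all genes), 0 to 2 for both together (2 without hypoxia-lactate 2, against 4.6%, and 1 without hypoxia-lactate 3, against 6.86%, or normoxia-NaCl 2, against 0.608%) and 0 in the other comparisons. For lactate in either oxygen level and the interaction, 0 passed in every alternative run. In hypoxia with lactate and in both together the replicate block gave Slc7a2 as the gene called, at 1.36 ± 0.21 (edgeR adjusted p = 0.0321) and 1.18 ± 0.21 (0.0215), although the pairing missed its limit there. By exact permutation the Nos2 oxygen difference was 1.97 without both outlying libraries and 1.30 to 2.02 with 1 library left out, with an adjusted p of 0.015 to 0.09. That of Arg1 was 0.32 to 0.77, with an adjusted p of 0.015 to 0.33. Of 1112 fitted changes of single genes, 23 newly passed, and 80 had the other sign than with all libraries, 0 of them past the threshold in either fit. Over all genes the share called in hypoxia without lactate was 0.281%, but 1.79% without hypoxia-lactate 3 and 5.08% with the block besides. Why single settings change a call was not tested.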
